A study of Caenorhabditis elegans with 8 samples.

Results

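The subject of this report is the difference between replicates 1 and 2 and replicates 3 and 4 in RNA-seq libraries of whole Caenorhabditis elegans. The split was chosen on the first principal component over all genes of these same libraries, so the difference between the sets is described here and was not tested. All 8 libraries of the series take part, 4 in each set, and each set holds 2 control and 2 treated libraries. All were made from wild-type (N2) animals grown on OP50 bacteria at 20°C, with urolithin A (UA, a gut microbial metabolite of plant polyphenols) at 50 μM in the medium for the treated ones and untreated medium for the controls. The design text has the treatment run from the last larval stage (L4) to day 4 of adulthood, while the study's methods give a harvest on day 1 of adulthood, and no other age or strain was used here. Each library was made from the pooled animals of a separate population, so that replicates are populations and not individual worms. The labels give no date, plate or sequencing run, and what replicates 1 and 2 shared that replicates 3 and 4 did not is not given in the sources used here.

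An adult hermaphrodite is for the most part intestine, body wall and a large germline. The intestine digests bacteria with lysosomal proteases, stores fat and makes yolk lipoproteins, which are secreted into the body cavity and taken up by growing oocytes, while fertilized eggs begin to transcribe their own genome before they are laid. The epidermis makes the cuticle collagens and small antimicrobial peptides that are induced by fungal infection and wounding, and most tissues can induce small heat shock proteins under heat or oxidative stress. In RNA from whole animals, fewer cells of a type and less RNA per cell cannot be told apart.

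The deposited counts summed to between 41890058 and 43055719 fragments per library, so depth was nearly equal. A gene's level is given as CPM, the counts brought to a common library size, after scaling with the trimmed mean of M values (TMM), and the size of a difference as the fitted log2 difference, replicates 1 and 2 minus replicates 3 and 4, with its standard error (SE) from a model that also holds the treatment. CPM do not account for gene length, so they compare libraries and not genes. In total, 13720 of 46928 genes had enough counts to be fitted, and the median difference over them was 0.003. In each of the 8 libraries vit-6 had the highest count, and the 10 most abundant genes of a library took 8.23% to 9.26% of its counts in replicates 1 and 2 against 10.4% to 10.8% in replicates 3 and 4. Library values are listed in the order control 1, control 2, UA 1 and UA 2, and then control 3, control 4, UA 3 and UA 4.

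The first principal component took 34.1% of the variance over genes and the second 18.6%. On the first component, controls 1 and 2 lay at 11.7 and 15.1 and UA libraries 1 and 2 at 29.8 and 29.3, whereas controls 3 and 4 lay at -27.5 and -26.9 and UA libraries 3 and 4 at -17.8 and -13.7. These are the values that chose the split, and the closest libraries across it were control 1 and UA 4.

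**Figure D1:**
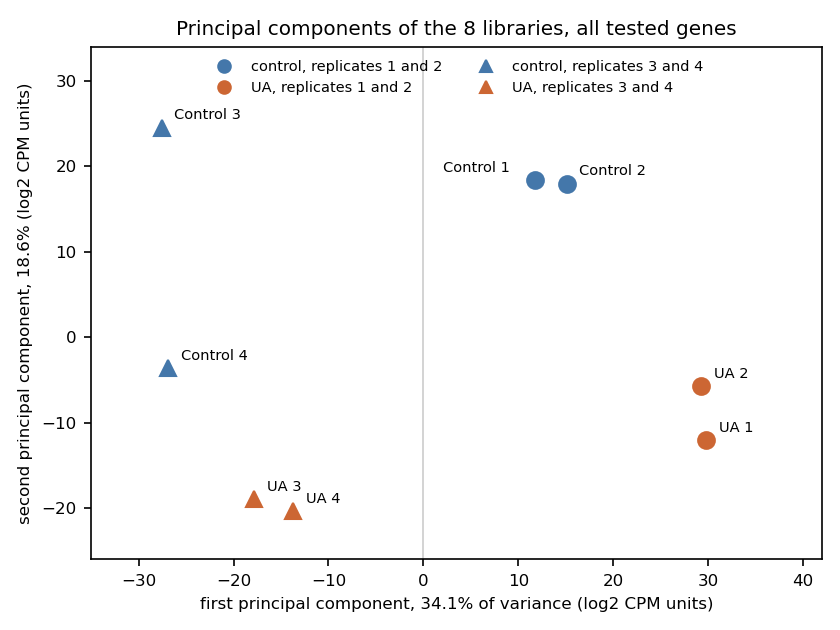
First principal component (horizontal axis) against the second (vertical axis) of log2 CPM over the 13720 tested genes, with 1 point per library, circles for replicates 1 and 2, triangles for replicates 3 and 4, blue for control and orange for UA. The 4 circles lie between 11.7 and 29.8 on the first component and the 4 triangles between -27.5 and -13.7.

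A gene was counted as separating the sets where the 4 values of one set lay all above the 4 of the other. This held for 1261 genes higher in replicates 1 and 2, which is 9.19% of the genes tested, and for 1202 genes lower, or 8.76%. With a fitted difference of at least 2-fold as well, 100 genes were higher (0.729%) and 179 were lower (1.30%). All 4 counts come from the contrast on which the split was made, so they give its extent only. Of the 279 genes in the 2-fold groups, 263 were protein-coding, 13 were pseudogenes, 2 were long non-coding RNAs and 1 was a microRNA gene. For each list with members that separated the sets, their share is given to be read beside the 9.19% higher and 8.76% lower of all tested genes. In total 22 gene lists, drawn up by function or tissue with earlier results of these data known, are described with their members. A further 5 lists, marked as such, were drawn up after the values were seen.

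**Figure D2:**
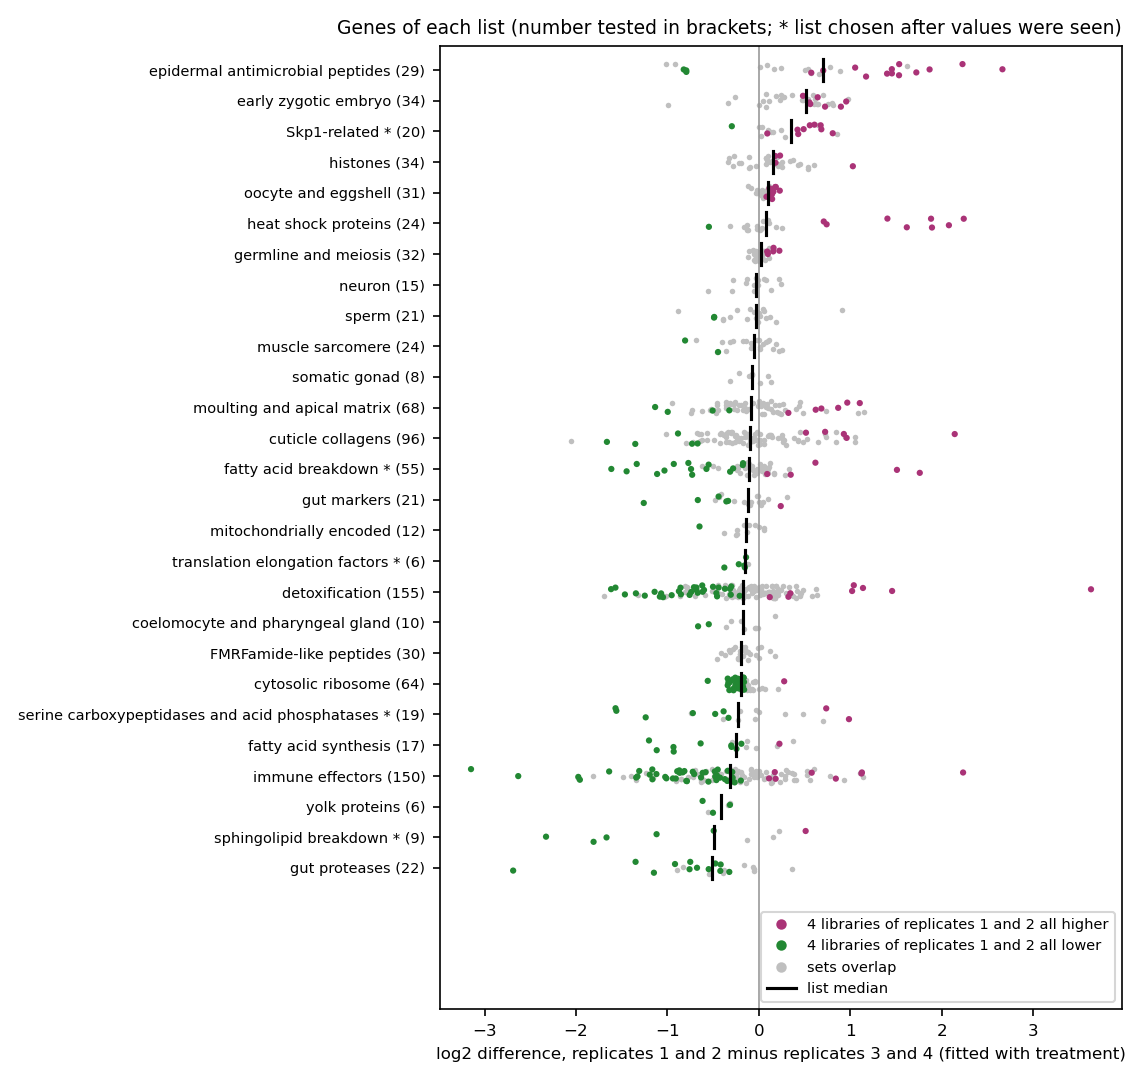
Fitted log2 difference between replicates 1 and 2 and replicates 3 and 4 (horizontal axis) for each gene of 27 lists (rows), with purple and green points for genes whose 4 values per set did not overlap and a black bar at each list's median. The medians run from -0.51 for the gut proteases to 0.70 for the epidermal antimicrobial peptides, and the heat shock proteins have a median of 0.08 with 6 members above 1.

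Heat shock proteins of the inducible kind were higher in replicates 1 and 2. The pair hsp-16.2 and hsp-16.41, neighbouring genes of small heat shock proteins that bind unfolded proteins, lies on chromosome V at 1804334 to 1804957 and 1805178 to 1805875 of WBcel235. The level of hsp-16.2 was 26.8, 24.9, 27.5 and 29.3 CPM against 6.41, 6.06, 6.40 and 6.81 CPM. That of hsp-16.41 was 20.6, 21.6, 22.4 and 20.1 CPM against 5.204, 4.04, 4.62 and 4.07 CPM. In both genes every library of replicates 1 and 2 stood far above every library of replicates 3 and 4, with a spread inside each set that was small beside the gap, and the log2 differences were 2.08 ± 0.07 and 2.24 ± 0.10 (SE). The inducible cytosolic chaperone gene hsp-70 (chromosome I, 9320325 to 9322519) was at 57.8, 62.0, 63.2 and 64.02 CPM against 16.14, 19.1, 22.2 and 23.5 CPM, again with no overlap and a log2 difference of 1.62 ± 0.07. A further 3 members of the family, hsp-16.1, hsp-16.11 and hsp-16.49, were also at least 2-fold higher, but hsp-16.1 with hsp-16.11 and hsp-16.48 with hsp-16.49 are nearly identical copies whose reads the authors' counting could have split, so their own values are uncertain. Smaller differences were seen in hsp-43 (log2 difference 0.74 ± 0.17) and hsp-17 (0.71 ± 0.09), whereas the small heat shock protein gene hsp-12.2 was lower (-0.55 ± 0.12). The values of hsp-17 and hsp-12.2 are uncertain, since they share exon positions with the more abundant F52E1.14 and phka-1 on the other strand.

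The abundant constitutive chaperones did not separate the sets. The Hsc70 gene hsp-1 was at 2811 to 3501 CPM against 3277 to 3606 CPM with a log2 difference of -0.12 ± 0.07, and hsp-90 at 3314 to 3656 CPM against 3319 to 3693 CPM with a difference of 0.02 ± 0.05. In the whole list, 24 of 25 genes were tested, of which 8 did not overlap and were higher (33.3%, beside 9.19% of all genes) and 1 was lower, and 6 were higher by at least 2-fold. The summed level of the list is set by the constitutive members, was 8759.9 to 10012 CPM against 9230.5 to 9996 CPM, and overlapped between the sets.

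The antimicrobial peptides of the epidermis were the list with the highest median difference. In it, 29 of 51 genes were tested, 7 others had no counts in any library, 13 of the tested genes were higher without overlap (44.8%, beside 9.19%) and 3 were lower (10.3%, close to 8.76%), and 11 were higher by at least 2-fold. The median log2 difference was 0.70 with all libraries, 0.99 with controls and 0.56 with UA libraries. The neuropeptide-like peptide gene nlp-34 (chromosome V, 3978825 to 3979134) was at 14.3, 18.8, 45.4 and 27.01 CPM against 2.31, 3.08, 11.3 and 7.93 CPM. Its neighbour nlp-29, a standard reporter of epidermal infection and wounding, was at 40.4, 48.9, 82.2 and 65.7 CPM against 12.02, 19.6, 34.7 and 24.6 CPM. Both were higher in all 4 libraries of replicates 1 and 2, with log2 differences of 2.23 ± 0.21 and 1.40 ± 0.15, but the spread inside each set was wide, and the highest library of replicates 3 and 4 came within a factor of 1.5 of the lowest of replicates 1 and 2.

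Of 7 tested caenacin (cnc) genes, which encode another family of these peptides, 4 were higher without overlap. The level of cnc-2 (chromosome V, 1449665 to 1450189) was 19.5, 23.6, 42.5 and 28.7 CPM against 4.10, 6.08, 15.7 and 11.1 CPM, and its log2 difference was 1.72 ± 0.19. For cnc-4 the difference was 1.46 ± 0.19 and for cnc-6 it was 2.66 ± 0.29, and in nlp-28, which lies in the same chromosome V cluster as nlp-29, it was 1.05 ± 0.11. The fungus-induced-protein-related gene fipr-22 was at 14.1, 23.4, 22.4 and 14.97 CPM against 5.204, 6.30, 7.14 and 7.31 CPM with a difference of 1.53 ± 0.18, while fipr-1, fipr-2 and fipr-5 of the same family were the 3 genes lower without overlap. Summed over the list the level was 291, 349, 579 and 426 CPM against 134, 179, 296 and 247 CPM, so that the sums of the sets overlapped: UA 3 lay above control 1.

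**Figure D3:**
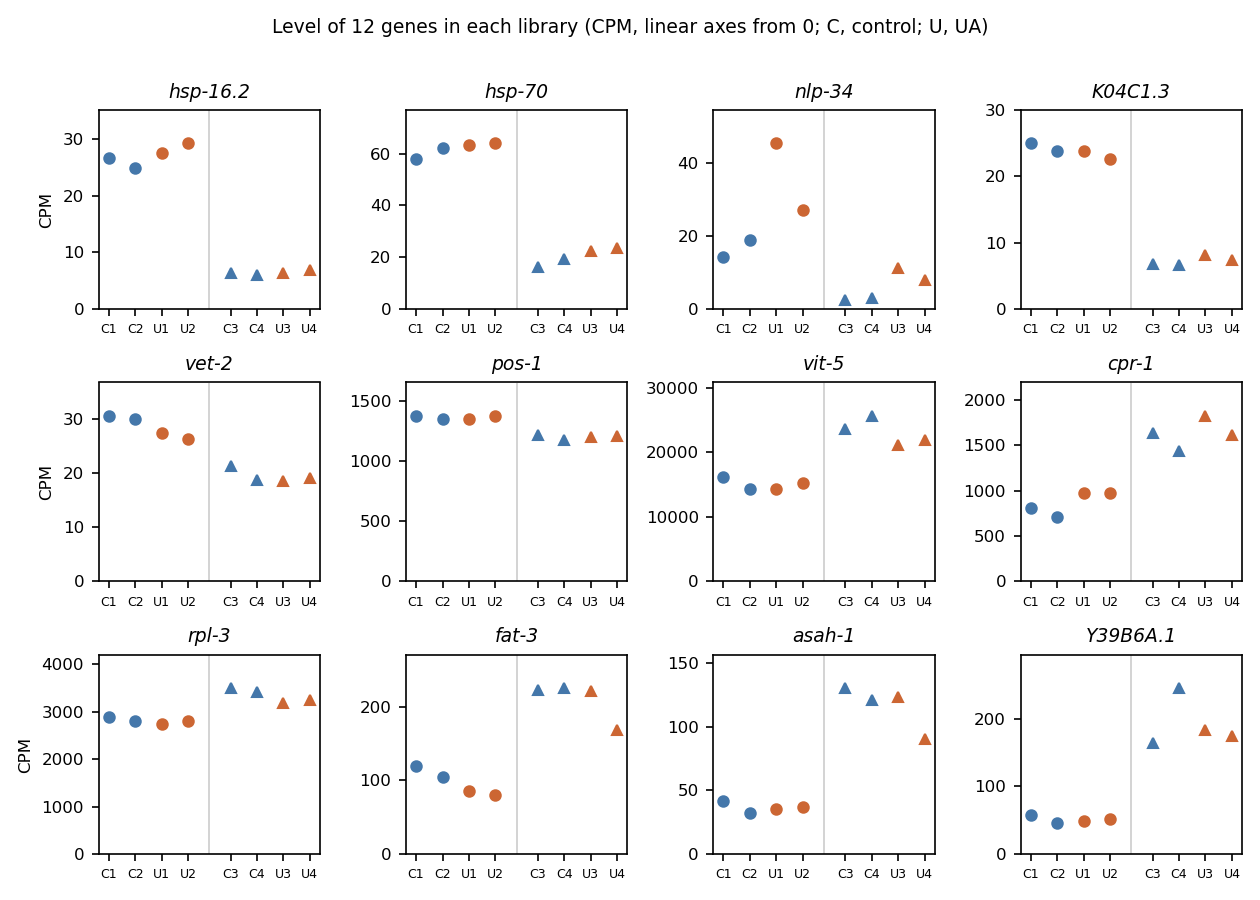
Level in CPM (vertical axes, linear from 0) of 12 genes in each of the 8 libraries (horizontal axes, C for control and U for UA), with circles for replicates 1 and 2 and triangles for replicates 3 and 4. In each panel the 4 circles and the 4 triangles do not overlap, with hsp-16.2 between 24.9 and 29.3 CPM in the circles and between 6.06 and 6.81 CPM in the triangles, and vit-5 lower in the circles.

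Other genes among the 10 largest differences towards replicates 1 and 2 had mixed functions. That ranking takes only protein-coding genes without overlap at a mean of at least 10 CPM. The lipase-like gene lips-11 (chromosome II, 1108841 to 1111001) was at 8.53, 11.5, 36.4 and 32.9 CPM against 0.867, 0.3604, 7.14 and 6.03 CPM, which gave the largest log2 difference among the protein-coding genes at a mean of at least 10 CPM, 2.95 ± 0.28. The gene ora-1, named for an antigen of the filarial parasite Onchocerca, was at 16.6, 17.5, 49.2 and 31.03 CPM against 1.78, 3.82, 9.86 and 8.85 CPM (2.32 ± 0.21). Both separated the sets, but UA 1 and UA 2 stood well above controls 1 and 2 in each. By contrast, K04C1.3 had almost the same level in all libraries of a set, 25.02, 23.9, 23.8 and 22.6 CPM against 6.79, 6.68, 8.08 and 7.45 CPM, with a difference of 1.72 ± 0.08. The gene srlf-34 was at 25.5 to 67.0 CPM against 2.92 to 17.6 CPM (1.96 ± 0.23).

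Transcripts of maturing oocytes and of the eggshell were slightly higher in replicates 1 and 2. All 31 genes of the list were tested, 12 were higher without overlap and none was lower (38.7%, beside 9.19%), but none reached 2-fold and the median log2 difference was 0.10. The level of pos-1, a zinc finger protein that specifies the germline in the early embryo, was 1379.7, 1354, 1351 and 1374 CPM against 1215, 1173, 1203 and 1207 CPM. The eggshell proteoglycan gene cpg-2 was at 5364, 5209, 5022 and 5266 CPM against 4680.0, 4490.3, 4486 and 4764 CPM. The gap between the sets was wider than the range inside either set for pos-1 but narrower for cpg-2, with log2 differences of 0.19 ± 0.04 and 0.18 ± 0.05, and the largest in the list was that of nos-2 (0.23 ± 0.04), which overlaps exons of him-14 on the other strand. The RNA-binding protein gene puf-5 differed by 0.15 ± 0.04. On the other hand, the abundant eggshell genes cbd-1 and cpg-1 overlapped between the sets (-0.04 ± 0.05 and 0.03 ± 0.05). Summed over the list, the level was 33985 to 34815 CPM against 32465 to 33633 CPM.

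Genes that the embryo itself begins to transcribe were further apart. Of 48 early zygotic genes 34 were tested, 7 were higher without overlap (20.6%, beside 9.19%), none was lower and 30 of the 34 had a difference above 0, with a median of 0.52. The level of vet-2, a very early transcript of the embryo, was 30.6, 29.97, 27.4 and 26.4 CPM against 21.4, 18.7, 18.5 and 19.2 CPM, and that of vet-1 was 15.5, 18.4, 12.66 and 14.5 CPM against 12.4, 9.28, 7.50 and 7.997 CPM. In both the sets were separate, with log2 differences of 0.55 ± 0.06 and 0.72 ± 0.11, though control 3 was the closest of replicates 3 and 4 and for vet-1 nearly reached UA 1. The T-box factor gene tbx-38 differed by 0.96 ± 0.21 and vet-6 by 0.48 ± 0.11. The summed level of the list was 118, 127, 110.0 and 118 CPM against 99.2, 84.4, 81.7 and 83.8 CPM, with no overlap. Embryos inside the mothers and embryos collected with them cannot be told apart as the source of these transcripts.

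Other germline genes differed little. Among 32 germline and meiosis genes 5 were higher without overlap (15.6%, beside 9.19%) and none lower, the median difference was 0.02, and the summed level was 6777 to 7023 CPM against 6760.2 to 7043 CPM. The translational repressor gene gld-1 was at 1261 to 1359 CPM against 1296 to 1370.4 CPM (-0.04 ± 0.04) and the P granule gene pgl-1 at 592 to 621 CPM against 605 to 635 CPM (-0.03 ± 0.04), both overlapping, while syp-2 of the synaptonemal complex was higher (0.23 ± 0.05). Sperm genes were nearly absent, as 23 of 106 had no counts and only 21 passed the filter, among them 1 gene of the major sperm protein family. Their sum was 223 to 229 CPM against 225 to 234 CPM, of which spe-39, a gene that also acts outside sperm, took 89.8 to 96.0 CPM against 89.96 to 97.2 CPM, and 2 weakly expressed genes, spe-4 and spe-9, were lower without overlap (9.52%, close to 8.76%). Histone genes had a median of 0.15, with 4 of 34 higher (11.8%, close to the 9.19% of all tested genes) and none lower.

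Genes of the Skp1-related family, which are adaptors of ubiquitin ligases, form a list drawn up after the values were seen. In it 9 of 20 tested genes were higher without overlap (45.0%) and 1 was lower (5.0%), beside 9.19% and 8.76%, with a median of 0.36. The member skr-7 was at 41.2 to 50.7 CPM against 28.2 to 39.6 CPM with a difference of 0.56 ± 0.10.

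Yolk protein genes were lower in replicates 1 and 2. All 6 vitellogenin genes had a difference below 0, with a median of -0.42, and 3 of the 6 did not overlap (50.0%, beside 8.76%). The level of vit-5 (on the X chromosome, 3403471 to 3408603) was 16204, 14291, 14359 and 15244 CPM against 23528, 25661, 21170.1 and 21878 CPM. That of vit-6 (chromosome IV, 8261157 to 8266459) was 19770.3, 16727, 20548 and 21349 CPM against 26804, 27084, 28169 and 28679 CPM. The lowest library of replicates 3 and 4 lay above the highest of replicates 1 and 2 in both, with log2 differences of -0.61 ± 0.07 and -0.50 ± 0.07. In vit-2 the sets were also separate, but closer, at 17376, 15226, 18876 and 19521 CPM against 22463, 22475, 21620.2 and 21509 CPM (-0.32 ± 0.07). The less abundant vit-1 (-0.56 ± 0.12), vit-3 (-0.32 ± 0.08) and vit-4 (-0.33 ± 0.08) overlapped, since control 1 reached the level of control 3 in each. Several vitellogenin genes are close copies of each other, so shared reads may have been split between them or left out in the counting. How such reads were counted is not given in the sources used here, so their sum may be affected too. The sum over the 6 genes was 56782, 48838, 56613 and 59113 CPM against 76090.3, 79157, 74862 and 76222 CPM, with no overlap, and the ratio of the mean of replicates 1 and 2 to that of replicates 3 and 4 was 0.723.

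Aspartyl and cysteine protease genes, listed here as gut proteases, were lower to a similar extent. The list was drawn up by gene name and not by measured tissue of expression. Of 28 genes 22 were tested, 12 were lower without overlap and none was higher (54.5%, beside 8.76%), and 3 were lower by at least 2-fold, with a median of -0.51. The cathepsin B-like protease gene cpr-1 (chromosome V, 11975551 to 11976756) was at 805, 714, 979 and 972 CPM against 1635, 1436, 1828 and 1609 CPM. The aspartyl protease gene asp-3 was at 1072, 928, 834 and 964 CPM against 1580.3, 1456, 1285 and 1245 CPM. Neither overlapped, and the log2 differences were -0.92 ± 0.07 and -0.55 ± 0.06. The other abundant aspartyl protease genes asp-1 (-0.68 ± 0.08) and asp-6 (-0.42 ± 0.04) and the cysteine protease gene cpr-5 (-0.76 ± 0.04) were lower too, and the largest difference was in the weakly expressed cpr-2, at 1.63, 1.41, 0.592 and 0.830 CPM against 10.8, 9.85, 4.81 and 3.74 CPM (-2.69 ± 0.16). Summed over the list, the level was 8391, 7702, 8410.0 and 8508 CPM against 12042, 11669.8, 11585 and 11518 CPM. In a list of serine carboxypeptidases and acid phosphatases, drawn up after the values were seen, 7 of 19 tested genes were lower and 2 higher without overlap (36.8% and 10.5%, beside 8.76% and 9.19%), 3 were lower by at least 2-fold, and the median was -0.23. Its largest differences were in the carboxypeptidase gene pcp-1, at 21.7, 19.8, 17.7 and 20.0 CPM against 67.3, 67.2, 59.0 and 42.9 CPM (-1.57 ± 0.10), and in the acid phosphatase gene pho-11, at 55.7, 58.7, 26.6 and 29.6 CPM against 117, 143, 119.7 and 97.9 CPM (-1.56 ± 0.14), which shares exon positions with the more abundant C05C10.3 on the other strand. In pho-11, UA 1 and UA 2 lay below controls 1 and 2.

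Not every gene of the intestine differed. Among 21 markers of the gut 5 were lower and 1 was higher without overlap (23.8% and 4.76%, beside 8.76% and 9.19%), and the median was -0.12, with -0.33 with controls and 0.05 with UA libraries. The ferritin gene ftn-1 was at 15.95, 20.5, 10.72 and 9.04 CPM against 34.7, 44.9, 27.2 and 24.99 CPM (-1.26 ± 0.11) and the proton pump gene vha-6 of the apical gut membrane at 94.9, 87.4, 91.0 and 87.4 CPM against 151, 153, 142 and 128 CPM (-0.67 ± 0.05). The summed level of the gut markers was 885 to 1057 CPM against 1093 to 1116 CPM, so the list as a whole was lower by less than the yolk and protease lists. Whether a change in the share of gut tissue had a part in the yolk and protease differences was not tested.

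Immune effector genes, a list drawn up by gene name, leaned the same way. Of 328 genes 150 were tested, 43 were lower and 8 higher without overlap (28.7% and 5.33%, beside 8.76% and 9.19%), and 14 were lower and 3 higher by at least 2-fold, with a median of -0.31. The gene dod-3, which lies downstream of the FOXO factor DAF-16, was at 7.77, 8.69, 5.19 and 6.04 CPM against 26.7, 26.3, 30.8 and 22.2 CPM (-1.96 ± 0.14), and the C-type lectin gene clec-63 at 745, 695, 541 and 552 CPM against 1141, 927, 822 and 811 CPM (-0.55 ± 0.06). The sets were separate in both. The saposin-like antimicrobial genes spp-1 (-0.94 ± 0.09) and spp-8 (-0.91 ± 0.09) and the lectin gene clec-210 (-1.97 ± 0.21) were also lower, though spp-1 shares exon positions on the other strand with the more abundant T07C4.3. In the opposite direction, clec-146 was at 25.1, 26.8, 40.9 and 31.8 CPM against 7.44, 13.96, 19.5 and 17.2 CPM (1.13 ± 0.16), irg-8 was higher by 0.58 ± 0.10, and the abundant clec-87, which shares exon positions with a gene on the other strand, was higher by 0.18 ± 0.05.

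Detoxification enzymes were divided. Of 155 tested genes 31 were lower and 8 higher without overlap (20.0% and 5.16%, beside 8.76% and 9.19%), with a median of -0.18. The cytochrome P450 gene cyp-35A3 was at 4.51, 4.23, 3.32 and 2.72 CPM against 11.8, 15.2, 10.3 and 8.09 CPM (-1.62 ± 0.13), the glutathione S-transferase gene gst-4 at 4.52 to 7.58 CPM against 13.3 to 14.1 CPM (-1.25 ± 0.13), and the glucuronosyltransferase gene ugt-64 at 25.1 to 43.7 CPM against 64.9 to 76.9 CPM (-1.05 ± 0.14). The largest difference of the list ran the other way. The level of gst-5, another glutathione S-transferase gene (chromosome II, 10950352 to 10951603), was 10.02, 9.50, 14.02 and 14.4 CPM against 0.795, 0.889, 1.13 and 1.02 CPM, with a difference of 3.63 ± 0.12 and values inside each set close to each other. Its 3′ end overlaps by a few bases that of nos-1 (chromosome II, 10951592 to 10953165), which lies on the other strand and was at 59.1 to 70.9 CPM against 48.4 to 57.4 CPM (0.37 ± 0.05). The sources used here do not say if strand was considered by the counting tool, so reads of the shared bases could have been counted for either gene. The glucuronosyltransferase gene ugt-44 was higher too, at 24.5 to 30.3 CPM against 11.998 to 15.03 CPM (1.02 ± 0.07).

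Genes of lipid synthesis were lower in replicates 1 and 2 for the most part. In fatty acid synthesis, 17 of 18 genes were tested, 9 were lower and 1 was higher without overlap (52.9% and 5.88%, beside 8.76% and 9.19%), and the median was -0.24. The delta-6 desaturase gene fat-3 (chromosome IV, 9803023 to 9806119) was at 119.2, 105, 85.1 and 79.8 CPM against 222, 225, 221 and 169 CPM, and the elongase gene elo-2 at 38.9, 25.4, 24.3 and 27.5 CPM against 65.2, 68.9, 68.2 and 63.3 CPM. All 4 values of replicates 1 and 2 were lower in each, with log2 differences of -1.12 ± 0.08 and -1.20 ± 0.12, and elo-6, an elongase of branched-chain fatty acids, differed by -0.93 ± 0.12. The abundant desaturase gene fat-2 differed less (-0.30 ± 0.05), and elo-3 was the gene that was higher (0.23 ± 0.04).

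Fatty acid and sphingolipid breakdown were lists drawn up after the values were seen. In fatty acid breakdown, 15 of 55 tested genes were lower and 5 were higher without overlap (27.3% and 9.09%, beside 8.76% and 9.19%), with a median of -0.11. The acyl-CoA synthetase gene acs-2 (chromosome V, 15567394 to 15569897), a target of the nuclear receptor NHR-49 that is induced by fasting, was at 56.2, 61.2, 59.9 and 57.9 CPM against 179, 207, 179 and 156 CPM (-1.61 ± 0.07), and hacd-1, a hydroxyacyl-CoA dehydrogenase gene, was at 31.6 to 44.1 CPM against 77.6 to 95.8 CPM (-1.34 ± 0.11). The fitted difference was more than 2-fold in both, with no overlap. Of 9 sphingolipid genes 5 were lower and 1 was higher without overlap (55.6% and 11.1%), and 4 were lower by at least 2-fold. The ceramidase gene asah-1 (chromosome I, 12505114 to 12507569) was at 41.9, 32.2, 34.99 and 37.1 CPM against 130.4, 121, 123 and 90.6 CPM (-1.67 ± 0.10). The sphingomyelinase gene asm-3 was at 8.91, 4.80, 1.73 and 1.89 CPM against 20.1, 22.9, 21.9 and 10.8 CPM (-2.33 ± 0.33), with a spread inside the sets that was wide beside its low level. The glucosylceramidase gene gba-2 was at 11.6, 12.5, 13.2 and 12.04 CPM against 30.9, 41.7, 59.0 and 43.1 CPM (-1.81 ± 0.13), and it shares exon positions with gba-1 on the other strand. The sum over the list was 164, 138, 147 and 151 CPM against 295, 297, 329 and 261 CPM, with a ratio of the mean of replicates 1 and 2 to that of replicates 3 and 4 of 0.508.

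**Figure D4:**
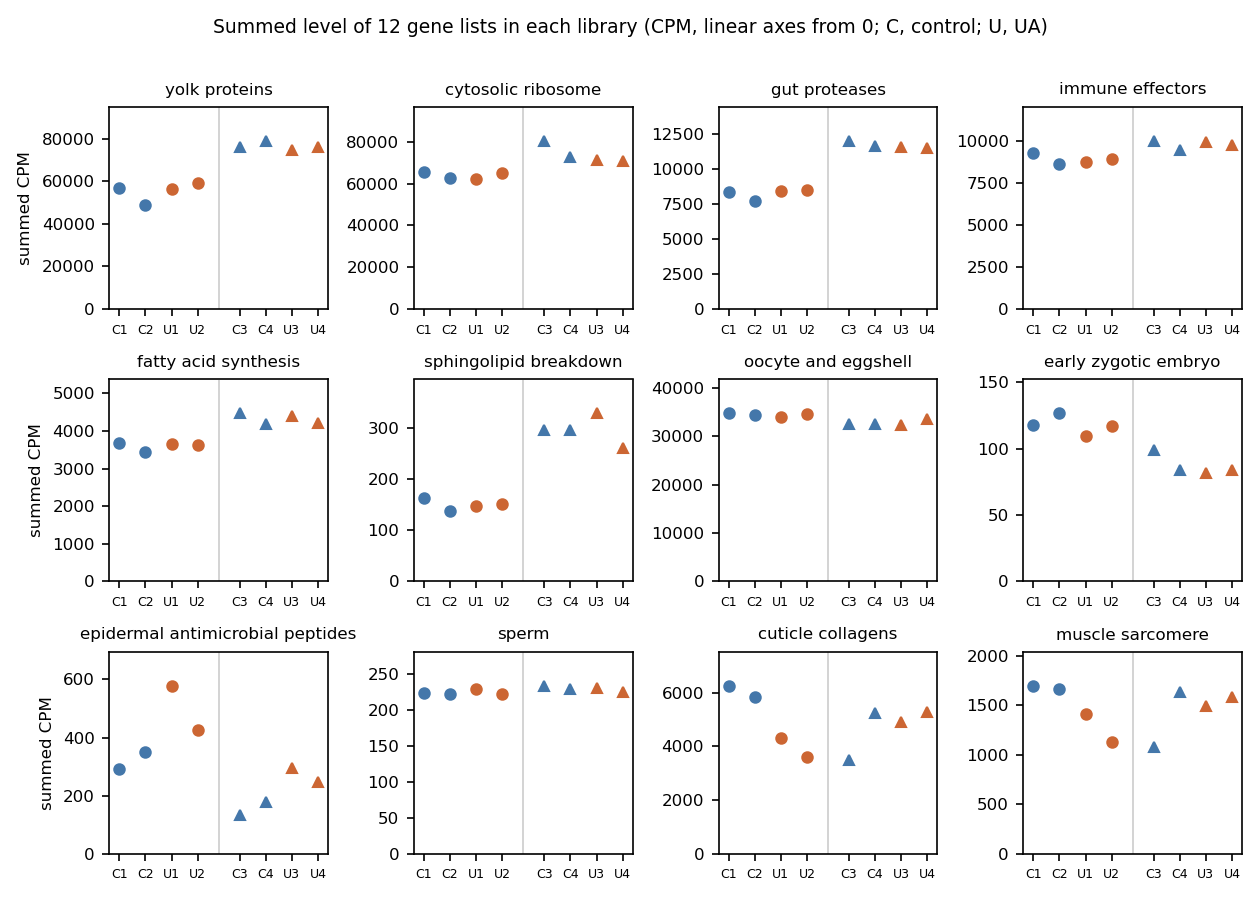
Summed CPM (vertical axes, linear from 0) of 12 gene lists in each of the 8 libraries (horizontal axes, C for control and U for UA), with circles for replicates 1 and 2 and triangles for replicates 3 and 4. The yolk, ribosome, gut protease, immune, fatty acid and sphingolipid sums are lower in all 4 circles and the oocyte and early zygotic sums higher, while the antimicrobial peptide, sperm, collagen and muscle sums overlap.

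Ribosomal protein genes were for the most part lower by a small amount. Of 65 genes 64 were tested, 32 were lower and 1 was higher without overlap (50.0% and 1.56%, beside 8.76% and 9.19%), 60 of the 64 had a difference below 0, and the median was -0.20. The level of rpl-3, a protein of the large subunit, was 2900.2, 2806, 2751 and 2812 CPM against 3499, 3408, 3177 and 3248 CPM, and that of rpl-5 was 1298, 1200.0, 1257 and 1429 CPM against 1805, 1619, 1551 and 1589.6 CPM. The sets did not overlap in either, with log2 differences of -0.24 ± 0.04 and -0.34 ± 0.06. The largest difference of the list was in rpl-11.2 (-0.56 ± 0.06) and the exception was rpl-41.1 (0.28 ± 0.07). The summed level was 65570.3, 62791, 62274 and 65121 CPM against 80532, 72519.8, 71351 and 70775 CPM, so that control 3 stood above the other libraries of its set. Of 6 translation elongation factor genes, a list drawn up after the values were seen, 5 were lower without overlap (83.3%, beside 8.76%), including eef-1A.1 at 9703 to 11421 CPM against 11815 to 13543 CPM (-0.22 ± 0.07).

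The listed genes of the mitochondrial genome had a median of -0.14, and 1 of 12 was lower without overlap (8.33%, close to 8.76%) and none higher. The median was -0.039 without control 3, -0.067 without control 1, -0.23 without UA 4, and 0.017 without both libraries of replicate 3. The lower gene was ND5, a subunit of complex I, at 184, 233, 177 and 214 CPM against 379.6, 304, 314 and 276 CPM (-0.65 ± 0.09). The abundant COX1 overlapped between the sets at 1455 to 1895 CPM against 1883 to 2359 CPM (-0.23 ± 0.09). Over all 14 tested genes of the mitochondrial genome, listed or not, 1 was higher and 1 was lower without overlap (7.14% each), with a median of -0.12.

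Genes of the cuticle and of muscle had no common direction. In the collagen list 96 of 179 genes were tested, 5 were higher and 5 lower without overlap (5.21% each way, below 9.19% and 8.76%), and the median was 0.14 with controls and -0.28 with UA libraries. The summed level was 6261, 5834, 4325 and 3618 CPM against 3478, 5259, 4922 and 5288 CPM, with control 3 and UA 2 lowest. The abundant col-122 was at 911, 828, 729.6 and 569 CPM against 446, 714, 702 and 752 CPM and col-119 at 691, 653, 450.4 and 376 CPM against 438, 695, 594 and 623 CPM, and both overlapped. Of the members that were separate, col-93 was lower, at 9.37, 9.14, 2.53 and 2.01 CPM against 14.05, 19.9, 11.998 and 15.6 CPM (-1.66 ± 0.30), and col-98 was higher, at 65.7, 66.3, 48.95 and 48.8 CPM against 17.9, 24.8, 41.6 and 40.3 CPM (0.93 ± 0.23). The weakly expressed col-43 was higher as well (2.14 ± 0.38).

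In muscle, 24 sarcomere genes summed to 1697, 1666, 1411 and 1131 CPM against 1077, 1633, 1492 and 1583 CPM, again lowest in control 3 and UA 2, and the median difference was 0.20 with controls and -0.37 with UA libraries. The myosin heavy chain gene unc-54 was at 271, 261, 226 and 159.5 CPM against 127, 253, 212 and 253 CPM (0.11 ± 0.21), with the sets overlapping, and tnt-3, a troponin T gene, was 1 of 2 genes lower without overlap (-0.81 ± 0.13), or 8.33% of the list, close to 8.76%. Neuronal genes (15 tested), FMRFamide-like neuropeptide genes (30 tested) and somatic gonad genes (8 tested) held no gene that separated the sets. Even so, 26 of the 30 FMRFamide-like genes had a difference below 0 and 4 above. Their median was -0.19, with -0.03 in controls and -0.29 in UA libraries. Moulting and apical matrix genes numbered 6 higher and 4 lower of 68 tested (8.82% and 5.88%, below 9.19% and 8.76%), and coelomocyte and pharyngeal gland genes none higher and 2 lower of 10 (20.0%).

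The largest differences towards replicates 3 and 4 were in genes of several of these groups and in others without a list. The ranking here takes only protein-coding genes without overlap at a mean of at least 10 CPM. The largest was in F42A10.7 (chromosome III, 6177916 to 6178686), at 4.98, 5.37, 1.55 and 1.02 CPM against 23.97, 31.3, 34.7 and 11.1 CPM (-3.16 ± 0.41). The next largest in this ranking by the fitted values, leaving out asm-3, was C50B6.7, at 9.77, 7.78, 4.23 and 3.97 CPM against 30.4, 38.3, 26.1 and 17.7 CPM (-2.18 ± 0.15). Y39B6A.1 was at 57.3, 46.3, 49.3 and 51.1 CPM against 164, 245, 184 and 175 CPM (-1.91 ± 0.11), and C30G12.2 at 65.6, 64.6, 29.2 and 38.96 CPM against 169, 185, 169 and 162 CPM (-1.85 ± 0.15). No library of one set reached the other in these 4 genes, but in all except Y39B6A.1 UA 1 and UA 2 lay below controls 1 and 2. The flavin-containing monooxygenase gene fmo-2, which responds to fasting and low oxygen, was at 7.11, 5.41, 2.05 and 3.37 CPM against 15.03, 18.1, 15.1 and 14.8 CPM (-1.90 ± 0.22).

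The share of genes that separated the sets varied with properties that the lists do not share evenly. By summed exon length, the shares higher and lower were 10.6% and 6.12% under 500 bases, 12.5% and 5.78% from 500 to 1000 bases, 9.91% and 8.55% from 1000 to 2000 bases, 5.42% and 10.6% from 2000 to 4000 bases, and 1.97% and 20.1% over 4000 bases. From 500 bases upwards, the share that was lower went up and the share that was higher went down with length. By level, 4.72% of the 106 genes over 1000 CPM were higher and 42.5% were lower, among them yolk and ribosomal genes described above. By chromosome, the shares higher and lower were 5.91% and 11.2% on the X chromosome and 7.66% and 10.6% on chromosome V, against 10.5% and 6.74% on chromosome I, 10.9% and 7.62% on II, 10.8% and 7.45% on III, and 9.25% and 8.89% on IV. The part of exon length, level or chromosome in the differences of the lists was not tested.

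Whether the sets differed by the same amount in control and in UA libraries was asked with an interaction term. The split was chosen on the first principal component of the same libraries over all genes. The test and its p-values are therefore not independent of that choice. The quasi-likelihood F test of edgeR gave 11 of 13720 genes (0.0802%) at an adjusted p under 0.05 (Benjamini-Hochberg over all tested genes), and 1173 genes at an unadjusted p under 0.05. With the replicate number as a block the count was 23. The count depended strongly on single libraries: it was 0 without UA 3, 0 without UA 4, 1 without control 1, 2 without control 2, 1 without UA 1 and 4 without UA 2, and it was 52 without control 3 and 490 without control 4. DESeq2 gave 135 genes. These 11 genes are therefore listed as passing this test only, and for the other genes a difference between treatments was not shown.

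The lowest p was that of act-5, the actin of gut microvilli, at 82.4, 71.4, 128 and 141 CPM against 142, 131, 114 and 106 CPM. The sets differed by -0.83 on the log2 scale in control libraries and by 0.29 in UA libraries, an interaction of 1.12 ± 0.11 (SE, adjusted p = 0.0106 by edgeR). It passed in 10 of 12 alternative fits, with adjusted p up to 0.0891. Replicates 1 and 2 were thus lower than replicates 3 and 4 in controls and not in UA libraries. For dhs-26, a short-chain dehydrogenase gene, the levels were 45.6, 45.5, 16.8 and 18.04 CPM against 65.1, 83.5, 74.6 and 67.1 CPM, and the log2 differences were -0.71 in controls and -2.02 in UA libraries (adjusted p = 0.0160 by edgeR), so the set difference had 1 direction and was larger with UA. The protease gene cpr-3 was at 35.8, 37.4, 78.5 and 70.2 CPM against 40.7, 38.3, 40.5 and 43.4 CPM, with 2 UA libraries of replicates 1 and 2 above the other 6 (interaction 0.94 ± 0.11). Of the 8 genes after act-5, dhs-26 and cpr-3, 3 were collagen genes (col-20, col-80 and col-98), and in col-20 and col-80 the fitted difference between the sets was above 0 in controls and below 0 in UA libraries. Each of the 11 genes except act-5 passed in 6 or 7 of the 12 alternative fits.

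**Figure D5:**
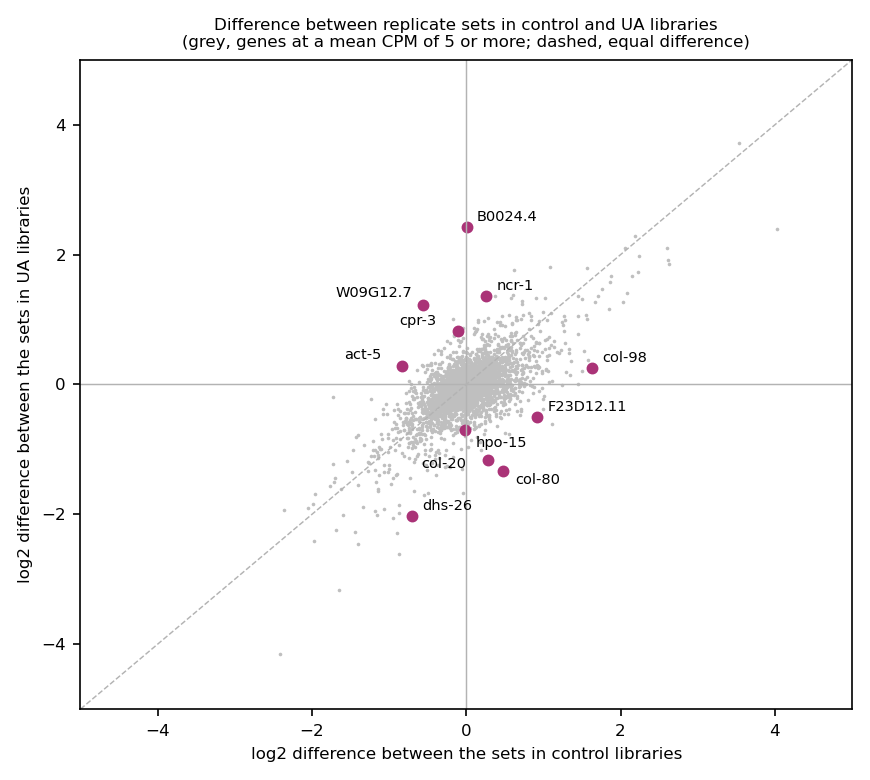
Log2 difference between replicates 1 and 2 and replicates 3 and 4 in the control libraries (horizontal axis) against that with UA libraries (vertical axis) for genes at a mean of at least 5 CPM (grey), with the 11 genes of the interaction test in purple and a dashed line of equal difference. The purple points lie away from the line, as for act-5 at -0.83 and 0.29 and for B0024.4 at 0.01 and 2.43.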

How the data were processed

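RNA from 8 whole-animal populations was sequenced as stranded poly(A) libraries. Reads were filtered by the authors, aligned with HISAT to WBcel235 (HISAT2 in the submitters' processing notes) and counted as fragments per gene with featureCounts 1.6.2, and the deposited table holds these counts with no normalization. Whether the strand was used in counting is not given in the sources used here. Of 46928 gene identifiers 46925 were matched to the RefSeq table of WBcel235, and 24320 had no counts.

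Genes were kept with filterByExpr on the treatment, scaled with TMM and fitted with edgeR 4.0.16 (glmQLFit) in R 4.3.3, with treatment and replicate set as terms. As the sets had been chosen on a principal component of log2 CPM (prior count 2), the fit gave differences and SE only, where SE is the absolute log2 difference divided by the square root of F. The interaction of set and treatment was tested with glmQLFTest and Benjamini-Hochberg adjustment. DESeq2 1.42.0, limma 3.58.1 and Python 3.11.15 with matplotlib 3.10.9 served for alternatives and plots. The steps were tested on simulated data.

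The sets, gene lists and tests were chosen with earlier results of these data known. By rule, genes were named if among the 10 largest differences in each direction (at least 2-fold, no overlap, protein-coding, mean CPM of at least 10), among the 3 most abundant or 3 most different of a list (mean CPM of at least 5), if vitellogenins, or if among the 4 lowest interaction p; the text takes 70 of these, and 42 others were named after their values were seen.

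Deviations from the treatment mean correlated across genes by 0.310, 0.246, 0.191 and 0.353 between libraries of replicate numbers 1 to 4, which includes the set itself; inside a set, replicate differences of control and UA libraries correlated by 0.0170 (1 minus 2) and 0.0382 (3 minus 4). Replicate numbers are nested in the sets, so the block was a random term for the set difference and a fixed term for the interaction. Alternatives were another scaling, another tool, no filter, each library left out, each treatment alone and a fold of 1.5; leaving out both libraries of a replicate number, and the counts without a fold limit, were added after the data were seen.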

Additional observations from a re-analysis of the deposited data

Results flagged for a closer look

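In 11 genes the difference between the sets passed the interaction test, which was edgeR's quasi-likelihood F test over all genes. They are listed as passing this test only, since the outcome depended strongly on single libraries and the split was chosen from the same libraries. The values below are the log2 difference in UA libraries minus that in control libraries. They were 1.12 for act-5, -1.32 for dhs-26, 0.94 for cpr-3, -1.37 for col-98, -1.43 for F23D12.11, -1.44 for col-20, 2.42 for B0024.4, -0.69 for hpo-15, 1.10 for ncr-1, 1.79 for W09G12.7 and -1.81 for col-80. For B0024.4 the level was 8.04, 8.91, 33.4 and 20.0 CPM against 7.66, 9.23, 4.86 and 5.06 CPM, so that UA 1 and UA 2 stood above the other 6 libraries. The same 2 libraries were highest for ncr-1, a Niemann-Pick type C homologue, at 16.6, 14.5, 45.0 and 38.96 CPM against 13.1, 12.9, 16.8 and 15.99 CPM, and for W09G12.7, at 9.86, 8.73, 43.9 and 36.4 CPM against 15.997, 11.4, 14.8 and 19.5 CPM. For hpo-15 the 2 UA libraries of replicates 3 and 4 were highest, at 41.02, 41.7, 37.3 and 37.5 CPM against 42.6, 40.7, 62.0 and 59.8 CPM. For F23D12.11 the level was 38.5, 33.5, 20.5 and 17.9 CPM against 17.01, 20.9, 25.97 and 28.5 CPM, with controls 1 and 2 highest.

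Single libraries also stood apart inside a set, judged by the gap to the nearest of the other 3 over the range of the 4, against Dixon's critical value. This was found in 15 of 278 groups of 4 libraries, over the sums of the lists and the named genes, where chance gives about 1 in 20. The share found is close to that of chance. Each group also mixed control and UA libraries, which the critical value does not allow for. Among the list sums, UA 4 was high for the oocyte and eggshell genes (33633 CPM, others of replicates 3 and 4 from 32465 to 32655), control 3 was high for the early zygotic genes (99.2 CPM, others 81.7 to 84.4) and low for fatty acid breakdown (5369 CPM, others 5729 to 5793), and control 2 was low for the gut proteases (7702 CPM, others of replicates 1 and 2 from 8391 to 8508). Among genes of replicates 3 and 4, control 3 was low for col-122 (446 CPM) and hacd-1 (77.6 CPM) and high for fipr-5 (1.01 CPM). Control 4 was high for fmo-2 (18.1 CPM) and col-20 (90.8 CPM) and low for tbx-38 (1.153 CPM), and UA 4 was low for fat-3 (169 CPM) and spe-39 (89.96 CPM). Among genes of replicates 1 and 2, UA 2 was high for cpg-1 (3766 CPM), control 1 was low for COX1 (1455 CPM) and high for spp-8 (64.3 CPM). Without UA 4 the log2 difference of fat-3 was -1.18, and without control 3 the median of the early zygotic genes was 0.58.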

How the results depend on the processing

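Under every alternative run, none of the 279 genes with a difference of at least 2-fold took the opposite sign. These genes had been chosen for having no overlap between the values of the sets. Fits on part of the same libraries could therefore hardly reverse the sign, so its constancy is no test of the differences. The genes called higher and lower, 100 and 179 (0.729% and 1.30% of the genes tested), numbered 145 and 333 (0.641% and 1.47%) with no filter on low counts, 267 and 444 (1.95% and 3.24%) at a fold of 1.5, 281 and 303 (2.05% and 2.21%) in control libraries and 242 and 409 (1.76% and 2.98%) in UA libraries, and 99 and 174 (0.722% and 1.27%) with the replicate block as a random term. With libraries left out they were 0.875% to 1.34% and 1.38% to 2.03% of the genes tested, higher because fewer values then have to lie apart. Without a fold limit the counts were 3802 and 3414 in control libraries, 3674 and 3738 in UA libraries, and 1357 to 2298 and 1406 to 2467 with libraries left out. The interaction count of 11 was 11 with DESeq2 size factors, 135 with DESeq2, 448 with no filter, 23 with the replicate block and 0 to 490 with libraries left out, and the cause was not tested.

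Some list medians moved with the libraries used. In control libraries alone and UA libraries alone, they were 0.14 and 0.066 for oocyte and eggshell, 0.14 and -0.28 for collagens, 0.052 and -0.25 for moulting, -0.33 and 0.052 for gut markers, -0.052 and -0.28 for detoxification, and 0.20 and -0.37 for muscle. In control libraries alone they were 0.051 for germline, -0.13 for sperm, 0.99 for antimicrobial peptides and 0.045 for histones, and in UA libraries alone -0.37 for immune effectors, -0.18 for neuron and -0.34 for coelomocyte and pharyngeal gland. With no filter they were -0.39 for sperm and -0.27 for immune effectors. With libraries left out, medians ranged from 0.076 to 0.11 for oocyte and eggshell, -0.0061 to 0.036 for germline, -0.12 to -0.027 for sperm, -0.21 to -0.0040 for collagens, -0.21 to 0.059 for moulting, -0.21 to -0.056 for gut markers, -0.36 to -0.27 for immune effectors, -0.25 to -0.12 for detoxification, -0.35 to -0.16 for fatty acid synthesis, 0.011 to 0.094 for heat shock, -0.094 to 0.10 for neuron and -0.29 to -0.070 for coelomocyte and pharyngeal gland. The cause was not tested.

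Of 45 named genes with a difference of at least 2-fold, 8 fell short of it under at least 1 alternative. In control libraries alone these were col-93 (-0.88), fat-3 (-0.996), dhs-26 (-0.71), gst-4 (-0.98) and nlp-28 (0.99), and in UA libraries alone clec-146 (0.99), ugt-64 (-0.97) and ugt-44 (0.9997). With libraries left out, nlp-28 fell short without control 2, UA 4 or replicate 2 (0.94 to 0.99), clec-146 without control 3 or replicate 3 (0.95 to 0.98), ugt-64 without control 1, UA 1, replicate 1 or replicate 3 (-0.994 to -0.77), and ugt-44 without control 2, control 4, UA 3 or replicate 4 (0.97 to 0.99). Limits are that the sets were chosen from these values, that differences in growth, harvest, library preparation and sequencing cannot be told apart, and that genes under 1 CPM rest on few counts.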

Other observations

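Tested genes were also grouped by the first part of their name, where at least 6 were tested. The groups below were picked from many after the values were seen, for a high share of members that separated the sets. The genes of SR splicing factors (rsp) held 5 of 8 that were higher in replicates 1 and 2, with a median log2 difference of 0.14, and the Pumilio family of RNA-binding proteins (puf) 6 of 10, with a median of 0.13, beside 9.19% of all tested genes. The myotubularin phosphatase genes (mtm) held 4 of 6 that were lower, with a median of -0.08, and the aldehyde dehydrogenase genes (alh) 5 of 12, with a median of -0.16, beside 8.76%. The differences in the first 3 groups were far under 2-fold, and members of a group are not independent. Some puf genes, puf-5 among them, are also in the oocyte and eggshell list. Other groups not described had shares above that of alh. The enu and tat groups each held 3 of 6 lower and none higher, and blos and ent each 3 of 6 higher and none lower.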
